A study of Ovis aries with 26 samples.

Results

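The genes described here are the 87 of 24478 in the count tables whose name starts with RPS or RPL followed by a digit. They were chosen by name alone, and the name does not fully match the function. Of the 87, 69 encode proteins of the cytosolic ribosome and are called core genes below, 29 of the small (40S) and 40 of the large (60S) subunit. Another 7 are paralogs of such genes (RPL3L, RPL7L1, RPL10L, RPL22L1, RPL26L1, RPL36AL and RPS27L). The remaining 11 are not ribosomal proteins: 10 are ribosomal protein S6 kinases and their relatives, and RPS19BP1 encodes a protein that binds RPS19. Of the UMIs of all 87, the paralogs held 0.924% and the 11 others 0.0932%, and the rest fell on the core genes.

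Ribosomal proteins assemble with ribosomal RNA in the nucleolus into the subunits that translate messenger RNA. Their messengers are among the most abundant in most cells, and many carry a 5′ motif that couples their translation to growth signals. In the exocrine pancreas, acinar cells make digestive enzymes in very large amounts and depend on a dense rough endoplasmic reticulum, whereas duct cells secrete bicarbonate and fluid through channels that include CFTR, the chloride channel mutated in cystic fibrosis (CF).

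Single-cell RNA-seq was done on pieces of fresh pancreas from American Romney sheep at 80 and 120 days of gestation and at term, in 26 libraries from 23 animals. The CF animals carried CFTR-/- alleles made by targeting exon 2. At 80 days there were 3 CF fetuses, all male and cloned from 1 fibroblast line, and 4 non-CF fetuses, of which 2 were wild type (WT) and 2 heterozygous (HZ, CFTR+/-), all 4 male and naturally bred. According to the study, the mutant allele of the HZ fetuses was altered at a different exon from that of the CF animals. At 120 days there were 6 CF fetuses, 4 male and cloned and 2 female and naturally bred, against 3 naturally bred WT, all male but 1. At term there were 3 CF animals, 2 female and naturally bred and 1 male and cloned, against 4 naturally bred WT, all male but 1. Sex was thus not balanced between genotypes at term or between 80 days and the later ages. Cloning and genotype therefore cannot be told apart at 80 days, and breeding comes from the methods of the study, not from the sample labels.

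The files held 109501 barcodes, of which 79510 were kept because their gene number lay between 200 and 6000 and mitochondrial genes made up less than 25% of their UMIs. Libraries held between 7841217 and 171256169 UMIs, and 1.05% of the distinct kept barcode sequences occurred in 2 or more libraries, at most 12 in any pair. Marker genes placed 76541 cells in 10 lineages. The library of CF 120-day replicate 3 stood apart: it was the shallowest, gave no endocrine cells and only 41 acinar cells, had low core shares in duct, stromal, mural, endothelial and Schwann cells, and is given separately wherever it sets a value. CFTR in duct cells ran from 89.0 to 378 UMIs per 1000000 (CPM) in the 11 non-CF animals and from 185 to 913 in the 12 CF animals, where the 913 is CF 120-day replicate 3 and the next highest is 572; these 3′ tags lie outside the targeted exon, so they check nothing about the genotype.

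The 69 core genes together took 18.4% ± 4.24 (SD, n = 23 animals) of the UMIs of all kept cells. Single genes spanned a wide range of levels. Among the high ones, RPS12 had 7032 CPM ± 1469 (SD, n = 23), RPS24 6007, RPS14 5972 and RPS19 5466, all of them small-subunit proteins, and 58 core genes exceeded 1000 CPM.

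At the other end, RPL39 reached 719 CPM, RPL14 201, RPL10A 88.4 and RPL26 3.63. RPL27A, a large-subunit protein, had 11 UMIs in all kept cells, whereas LOC101123279, which the RefSeq table of a later sheep assembly names RPL27A, had a mean of 4514 CPM. How reads of near-identical copies were split in the low genes was not tested. RPS28, RPL17, RPL37A and RPL41 are not listed by symbol. All but RPL27A of the core genes, 68, passed the low-count filter in each of the 4 largest lineages.

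By the mean over animals, lymphocytes gave the highest share of UMIs to the core genes and erythroid cells the lowest. The share was 31.3% ± 3.62 (SD, n = 14 animals) in lymphocytes, 20.9% ± 6.94 (n = 23) in acinar, 20.4% ± 2.52 (n = 21) in mural, 19.6% ± 4.28 (n = 22) in stromal, 18.8% ± 3.47 (n = 23) in endothelial and 18.2% ± 3.20 (n = 16) in macrophage cells. Duct cells had 16.2% ± 2.86 (n = 23), endocrine cells 15.9% ± 2.67 (n = 21), Schwann cells 15.2% ± 3.17 (n = 11) and erythroid cells 4.39% ± 2.38 (n = 9). Of the 11 animals with enough Schwann cells, only WT 80-day replicate 1 and WT 120-day replicate 3 were not CF. Means for Schwann cells, here and below, thus rest mostly on CF animals. Within animals, lymphocytes were above duct cells in 14 of 14, mural above duct cells in 20 of 21 and stromal above duct cells in 19 of 22.

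Most neighbours in this order did not differ beyond their spread. Lymphocytes exceeded acinar cells by 8.65 points ± 10.2 (SD, n = 14 animals) and did so in 9 of 14, but at 80 days acinar cells were the higher in 5 of 7 animals. Endocrine and duct cells differed by 0.888 points ± 3.15 (SD, n = 21 animals), with duct higher in 11, and mural exceeded stromal cells in 13 of 21. Acinar cells exceeded mural cells in 10 of 21 animals, with a spread that followed age, as described below. Depth differed between lineages as well, with a median of 25342 UMIs per acinar cell, 9556 per duct cell and 5942 per stromal cell, and its part in the order was not tested.

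**Figure D1:**
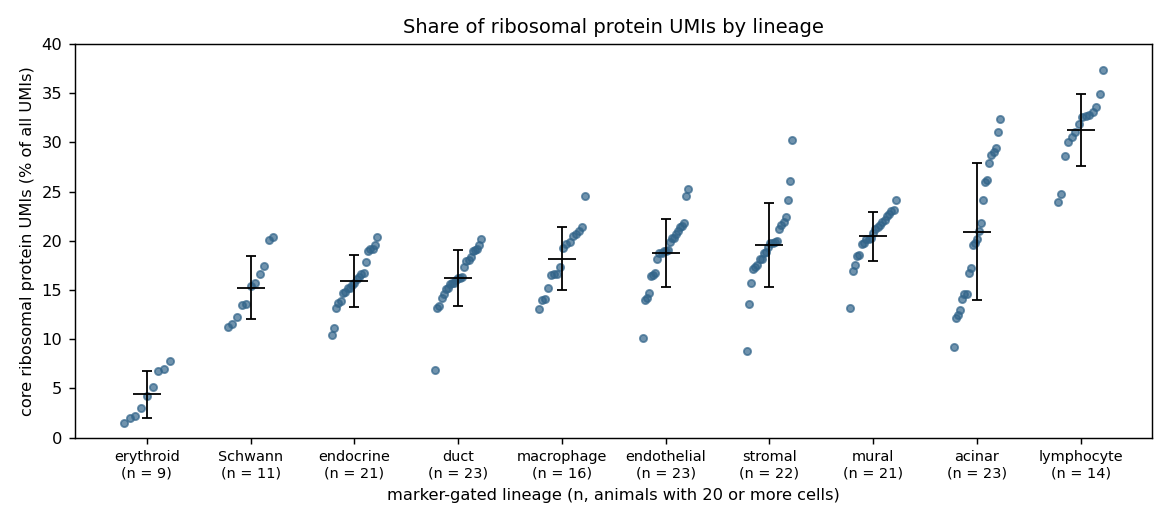
Share of UMIs (y axis, percent) taken by the 69 core ribosomal protein genes in 10 marker-gated lineages. Each point is 1 animal with 20 or more cells of that lineage, and the bars are the mean ± SD. Lymphocytes lie between 23.9% and 37.3% and erythroid cells between 1.44% and 7.75%, while acinar cells span 9.21% to 32.4%.

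In most animals, stromal, duct and acinar cells called dividing by a score over 12 cell cycle genes gave a smaller share to the core genes than other cells of their lineage. Each of the other lineages had at most 2 animals with enough dividing cells, too few to compare. In stromal cells the share was 12.8% ± 1.95 (SD, n = 6 animals) in dividing and 18.8% ± 1.91 in other cells, lower in 6 of 6 animals. In duct cells it was 15.0% ± 2.05 against 17.5% ± 2.19, lower in 8 of 9, and in acinar cells 18.8% ± 5.22 against 20.2% ± 6.69, lower in 12 of 15. The 27118 barcodes with 25% or more mitochondrial UMIs, which were not kept, gave 4.23% ± 0.844 (SD, n = 23) to the core genes. With mitochondrial UMIs left out of the total these barcodes had 9.45% ± 2.25, against 19.3% ± 4.41 in kept cells.

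The acinar share fell with age. In non-CF animals it was 29.5%, 31.0%, 28.7% and 32.4% at 80 days, 19.8%, 16.8% and 21.8% at 120 days, and 14.6%, 12.2%, 9.21% and 12.5% at term. The 3 ages did not overlap. In CF animals it was 29.0%, 28.0% and 26.2% at 80 days, between 17.2% and 26.0% with a median of 20.6% at 120 days, and 14.6%, 14.1% and 13.0% at term, again without overlap. How much of the earlier step shows depends on what the total holds. In non-CF animals the log2 ratio of shares was -0.65 from 80 to 120 days and -0.69 from 120 days to term, and -0.043 and -0.56 with mitochondrial genes and the most abundant genes of each lineage left out of the total.

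By group means the share changed by fewer points with age in duct, endocrine and stromal cells. In non-CF animals duct cells had 17.2% ± 1.71 (SD, n = 4) at 80 days, 16.01% ± 1.15 (n = 3) at 120 days and 13.8% ± 0.686 (n = 4) at term, where every animal was below every earlier one. Endocrine cells had 14.4% ± 1.13 (n = 4), 16.6% ± 0.190 (n = 3) and 16.8% ± 3.12 (n = 3), and stromal cells 17.7% ± 1.47 (n = 4), 18.5% ± 1.34 (n = 3) and 18.5% ± 4.48 (n = 3). Endocrine cells were higher at 120 than at 80 days without overlap, whereas term overlapped both earlier ages, and stromal cells overlapped at all 3. CF duct cells overlapped between ages, at 20.2%, 16.3% and 15.2% at 80 days and 16.3%, 15.97% and 19.6% at term. CF endocrine cells had 13.9%, 10.4% and 11.1% at 80 days, between 14.7% and 19.6% in 5 animals at 120 days and 17.8%, 19.1% and 15.7% at term, with 80 days below both later ages without overlap, and CF stromal cells overlapped at all 3. Whether the course differs between genotypes was not tested on these shares. WT term replicate 1 had too few endocrine and stromal cells to be counted in those lineages.

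**Figure D2:**
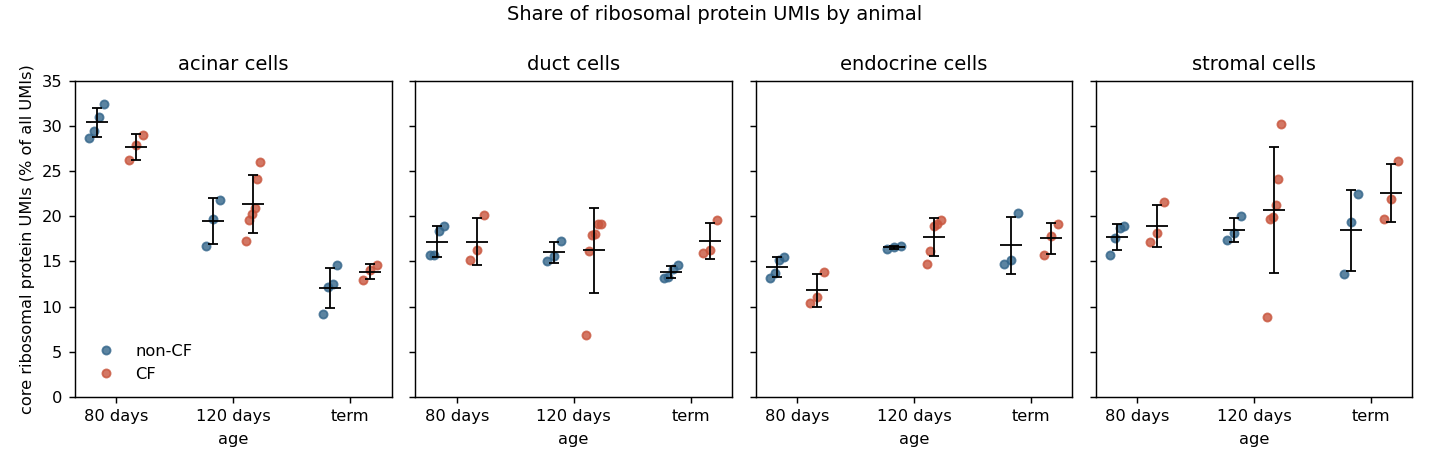
Share of UMIs (y axis, percent) taken by the core genes in acinar, duct, endocrine and stromal cells at 80 days, 120 days and term. Points are animals, blue for non-CF and red for CF, and bars are the mean ± SD. Acinar points descend from between 26.2% and 32.4% at 80 days to between 9.21% and 14.6% at term, and the low red point among duct cells at 120 days is CF replicate 3 at 6.84%.

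Other quantities moved with the acinar share. UMIs of the acinar marker list, mostly digestive enzymes, were 4.85% ± 0.649 (SD, n = 4) of acinar UMIs in non-CF animals at 80 days, 7.15% ± 0.863 (n = 3) at 120 days and 14.6% ± 3.16 (n = 4) at term. Core UMIs per acinar cell went from 8810 ± 698 to 6628 ± 1563 and 3637 ± 1184, while all other UMIs per acinar cell were 20241 ± 2414, 27667 ± 6592 and 26109 ± 4815. A share of UMIs cannot separate fewer ribosomal protein messengers from more of the others. With the genes of the acinar marker list left out of the total, the log2 ratio of shares was -0.62 from 80 to 120 days and -0.57 from 120 days to term. The list held 4.85% of acinar UMIs at 80 days and 7.15% at 120 days, so leaving it out could change the earlier ratio little. Leaving out mitochondrial genes and the most abundant genes of each lineage made the earlier ratio much smaller, as given above. The -0.62 thus does not separate the readings either.

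Gene by gene, the timing of the fall depended on how libraries were scaled. TMM scaling sets the typical gene to no change, whereas scaling to all UMIs keeps each gene's share. Between 80 and 120 days in non-CF acinar cells, edgeR's quasi-likelihood test with TMM called 0 of 68 core genes at an adjusted p of 0.05 (4 at an unadjusted p under 0.05, and 0 by DESeq2), with a median log2 fold change of 0.14, where 0.557% of all genes were called. With scaling to all UMIs it called 56, all lower, with a median of -0.74, but 38.7% of all 15085 genes were then called, 5770 of those 5841 lower, and their median was -0.90. The core genes thus fell between these ages as a share of UMIs and not relative to the typical gene.

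Between 120 days and term the core genes fell under both scalings. With TMM, 38 of 68 were lower and 0 higher in non-CF acinar cells, with a median log2 fold change of -0.84, where 14.2% of all genes were called and the median of all genes was 0.03. Scaling to all UMIs called 28, all lower, with a median of -0.69, where 8.09% of all genes were called. The count rested on few animals: it was between 13 and 41 when 1 animal was left out, with 15, 20 and 16 called without WT 120-day replicate 1, 2 or 3 and 13 without WT term replicate 3.

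RPL5, which carries 5S ribosomal RNA into the large subunit and can bind MDM2, had 2443, 2018 and 2157 CPM in acinar cells at 120 days and 1987, 1038, 953 and 1203 at term. The groups did not overlap, and RPL5 fell by 0.96 on the log2 scale (SE 0.20, edgeR adjusted p = 0.00355). RPL10, a late-joining large-subunit protein, had 5897, 4977 and 6270 CPM against 3625, 2842, 2461 and 3462, and fell by 1.02 (SE 0.22, edgeR adjusted p = 0.00485). In CPM, a scale per total UMIs, both genes were higher at 80 days than at either later age in every non-CF animal, RPL10 for example at 7953, 8493, 8112 and 8418. As above, no core gene was called between 80 and 120 days with TMM.

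In duct, endocrine and stromal cells at most 1 core gene was called in either step with TMM, which does not show that the levels were unchanged. From 80 to 120 days none of the 68 was called in duct (0.453% of all genes called), endocrine (0.271%) or stromal cells (0.649%), with 0, 27 and 0 at an unadjusted p under 0.05. Genes at an unadjusted p under 0.05 were counted among the core genes only. Such counts, here and elsewhere, have no background and are a description. In endocrine cells 63 of the 68 had a higher fitted level at 120 days, with a median log2 fold change of 0.35. Scaling to all UMIs gave a median of 0.13, where the median of all genes was -0.21, and 8 core genes had an unadjusted p under 0.05. DESeq2 called 4 in endocrine cells (1.13% of all genes), RPL7A, RPS3A, RPS14 and RPS24, all higher at 120 days, and 0 in the other lineages. From 120 days to term none was called in duct cells (0.669% of all genes; 0 at an unadjusted p under 0.05, and 0 by DESeq2), and 1 each in endocrine (1.6%) and stromal cells (4.51%).

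That gene was RPL14 in both lineages. A count of 1 in 68 does not exceed the background in either, so it is no result about the core genes, and its values are given as a description. In endocrine cells RPL14 had 158, 159 and 212 CPM at 120 days and 280.1, 420 and 419 at term, a log2 fold change of 1.02 (SE 0.26, edgeR adjusted p = 0.0472). In stromal cells RPL14 had 225, 226 and 221 CPM against 371, 637 and 523, a log2 fold change of 1.17 (SE 0.33, edgeR adjusted p = 0.0433). Neither pair of groups overlapped, but the stromal call was lost on leaving out any 1 of the 6 animals, and the endocrine call without any of the 120-day animals or without WT term replicate 3 or 4.

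The difference in age change between lineages was tested in non-CF animals as an interaction, a fit added after the shares had been seen. From 80 days to term the log2 change was lower in acinar than in endocrine cells for 63 of 68 core genes (10.5% of all genes called). It was lower than in duct cells for 7 (2.96%) and than in stromal cells for 5 (7.85%), with 0 in the other direction. With TMM the core genes as a set did not fall in endocrine cells. Their median there was 0.35 from 80 to 120 days and -0.04 from 120 days to term. The stromal count is near the background and is no result about the core genes. With scaling to all UMIs the counts were 67 (31.3% of all genes called), 61 (6.94%) and 68 (12.2%). RPS4X, an X-linked small-subunit protein, had the largest difference from endocrine cells among the core genes, with a log2 difference of -1.64 (SE 0.16, edgeR adjusted p = 5.76e-04). RPS4X stood at 4491, 3992, 3597 and 3938 CPM in non-CF acinar cells at 80 days and at 1744, 1157, 996 and 1242 at term, while endocrine cells had 1576, 1361, 1401 and 1405 and then 1781, 1830 and 2915.

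With all animals, edgeR called no core gene between CF and non-CF animals in any of the 4 lineages at any age. In acinar cells 0.285%, 0.053% and 0.683% of all genes were called at 80 days, 120 days and term, and 4, 5 and 0 core genes had an unadjusted p under 0.05. Without CF 80-day replicate 1, however, 5 core genes were called in acinar cells at 80 days, all lower in CF, with 26 at an unadjusted p under 0.05, where 0.249% of all genes were called. The median log2 fold change was then -0.46, against -0.30 with all animals and -0.15 with all animals and scaling to all UMIs. The 2 clones left share an animal number in the list of the study, and leaving out any other 80-day animal gave 0 calls. In duct cells the background was 0.5%, 0.00769% and 1.89%, with 0, 0 and 1 such core genes. In endocrine cells it was 0.14%, 0.147% and 0%, with 24, 2 and 1, and in stromal cells 0.0914%, 0% and 0%, with 0, 2 and 2. DESeq2 called 1 core gene, RPS19 in endocrine cells at 80 days (0.395% of all genes).

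These counts do not show that the groups were alike. The median standard error of a core gene's log2 fold change was 0.25 in acinar and 0.22 in endocrine cells at 80 days and 0.43 in stromal cells, so changes of less than about 2-fold would often be missed. The genotype effect at term against that at 80 days also gave 0 core genes in each lineage, where 0.00663% of acinar, 0.00769% of duct, 0.00775% of endocrine and 0% of stromal genes were called, with 6, 0, 26 and 0 core genes at an unadjusted p under 0.05. The percentages are for adjusted p, and the share of all genes at that unadjusted p was not counted.

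The endocrine cells at 80 days came closest to a difference. With TMM all 68 core genes had a lower fitted level in CF, with a median log2 fold change of -0.43. Scaling to all UMIs gave a median of -0.28, where that of all genes was 0.18, and 14 core genes had an unadjusted p under 0.05 against 24 with TMM. RPS19, a small-subunit protein mutated in Diamond-Blackfan anaemia, had 2602, 2182 and 2060.3 CPM in CF and 3039, 2859, 3447 and 3786 in non-CF endocrine cells, without overlap, at a log2 fold change of -0.67 (SE 0.19, edgeR adjusted p = 0.226). Without CF 80-day replicate 1, which had the highest endocrine share of the 3 clones, 20 core genes were called, where 0.949% of all genes were. The clones left, replicates 2 and 3, share an animal number in the list of the study. Litter and genotype therefore cannot be told apart in these 20 calls. Leaving out CF replicate 2 or 3 instead gave 0 calls (1 core gene at an unadjusted p under 0.05 each time). By share of UMIs the groups overlapped, at 13.9%, 10.4% and 11.1% in CF and 13.2%, 13.7%, 15.5% and 15.2% in non-CF.

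In all kept cells together the share differed in opposite directions at the 2 ends of the course. At 80 days it was 20.4%, 21.1% and 17.3% in CF and 25.0%, 23.5%, 23.7% and 25.5% in non-CF, and at term 15.7%, 16.2% and 15.9% in CF and 14.5%, 12.7%, 9.59% and 13.0% in WT, without overlap at either age. This mixture also reflects which cells each library held. With acinar, duct, endocrine and stromal cells given equal weight, the log2 ratio at 80 days went from -0.32 to -0.08. At term the log2 ratio of 0.37 went to 0.063 with mitochondrial and the most abundant genes left out of the total. Leaving out those genes at 80 days made the difference between genotypes larger, as given in the last section. The ratio with equal weight at term is not given, so the alternatives are not matched between the ages. At 120 days the groups overlapped, at 19.3%, 16.9% and 20.3% in WT and between 13.2% and 23.1% in CF, where the lowest was replicate 3.

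In duct cells at term the share was 16.3%, 15.97% and 19.6% in CF and 13.2%, 13.3%, 14.2% and 14.6% in WT, without overlap, although no single core gene was called. The 3 animals sequenced as 2 libraries each gave shares that differed by at most 0.974 points between libraries, in all kept cells of CF 120-day replicate 1.

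Between lineages of the same animals the scaling again decided the size and for some genes the sign. Each of these fits pooled all ages and genotypes. Acinar against duct cells gave 68 of 68 core genes higher with TMM, with a median log2 fold change of 1.96, where 78.1% of all genes were called. With scaling to all UMIs 34 were higher and 6 lower, with a median of 0.25, a count below the background of 95.1% of all genes called, whose median was -1.74. That median of 0.25 pooled ages that differed. At 80 days acinar shares in non-CF animals ran from 28.7% to 32.4%, against 15.7% to 18.9% in duct cells. At term they were 14.6%, 12.2%, 9.21% and 12.5% against 13.2%, 13.3%, 14.2% and 14.6%. CF term animals had 14.6%, 14.1% and 13.0% against 16.3%, 15.97% and 19.6%. RPS4X and RPL15 had large TMM differences, at 2.63 and 2.59, and were also higher in acinar cells with scaling to all UMIs, RPS4X at a log2 fold change of 0.92 (SE 0.14) and RPL15 at 0.88 (SE 0.13).

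Between stromal and duct cells 59 of 68 core genes were higher and 0 lower in stromal cells with TMM (69.2% of all genes called). With scaling to all UMIs 46 were higher and 0 lower, a count that does not exceed the background of 73.2%. RPL23A led, with 1955 CPM in stromal and 1050 in duct cells, higher in 22 of 22 animals (log2 fold change 1.08, SE 0.07, edgeR adjusted p = 2.15e-13). RPS10 and RPS26 followed at 0.86 and 0.76, both also higher in 22 of 22. Endocrine against duct cells gave 30 higher and 11 lower with TMM (77.3% of all genes called) but 13 higher and 35 lower with scaling to all UMIs (79%). Neither count exceeds its background, so the genes named next are a description. RPL23A at 0.75 and RPS10 at 0.69 were higher, and RPL4 at -0.59, RPS26 at -0.45 and RPS27 at -0.41 lower, each in the same direction with scaling to all UMIs.

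**Figure D3:**
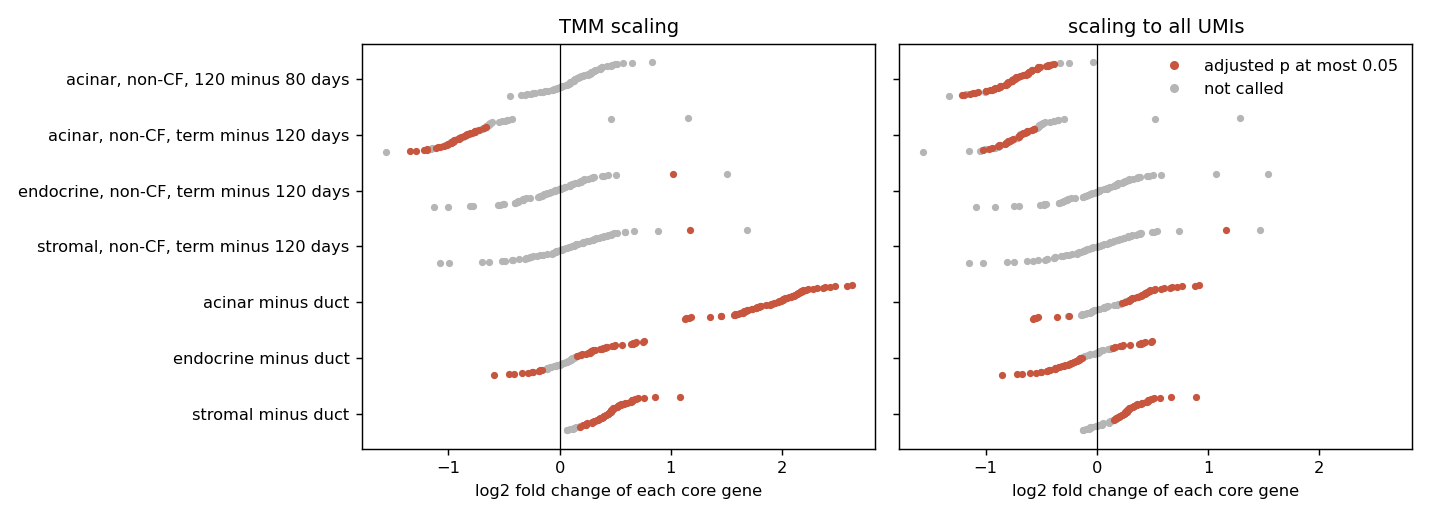
Log2 fold change (x axis) of each of the 68 tested core genes in 7 comparisons (rows), with TMM scaling on the left and scaling to all UMIs on the right. Each point is a gene, red where its adjusted p was at most 0.05. Acinar cells at 120 against 80 days have 0 red points on the left and 56 on the right, whereas at term against 120 days most points lie below 0 on both sides.

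Core ribosomal protein UMIs were also used as the library size, which compares each core gene with the others. Relative to the other core genes, 23 were higher and 32 lower in acinar than in duct cells (96.4% of all genes called), 22 higher and 26 lower in endocrine cells (72.6%) and 17 higher and 19 lower in stromal cells (77.5%). None of these 3 counts exceeds its background, so nothing particular to the core genes is read from them. The same edgeR scaling called 0 core genes between genotypes in any lineage at any age, with 0 to 9 at an unadjusted p under 0.05, and 4 between 120 days and term in acinar cells (44% of all genes): RPL26, RPL14 and RPS10 higher and RPS20 lower.

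Among the 66 core genes at 100 CPM or more, the share of core UMIs had a median range of 0.57 (log2) over 9 lineages, and 7 varied by more than 1. RPL36A varied by 1.29: it held 0.325% ± 0.0776 (SD, n = 23) of the core UMIs in acinar and 0.788% ± 0.138 (n = 21) in endocrine cells. RPL15 held 1.06% ± 0.149 (n = 23) in acinar and 0.487% ± 0.0912 (n = 11) in Schwann cells, and RPS26 held 1.07% ± 0.180 in Schwann and 0.500% ± 0.102 in endocrine cells. RPS18, RPL23 and RPL6 varied least, by 0.23, 0.25 and 0.27.

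**Figure D4:**
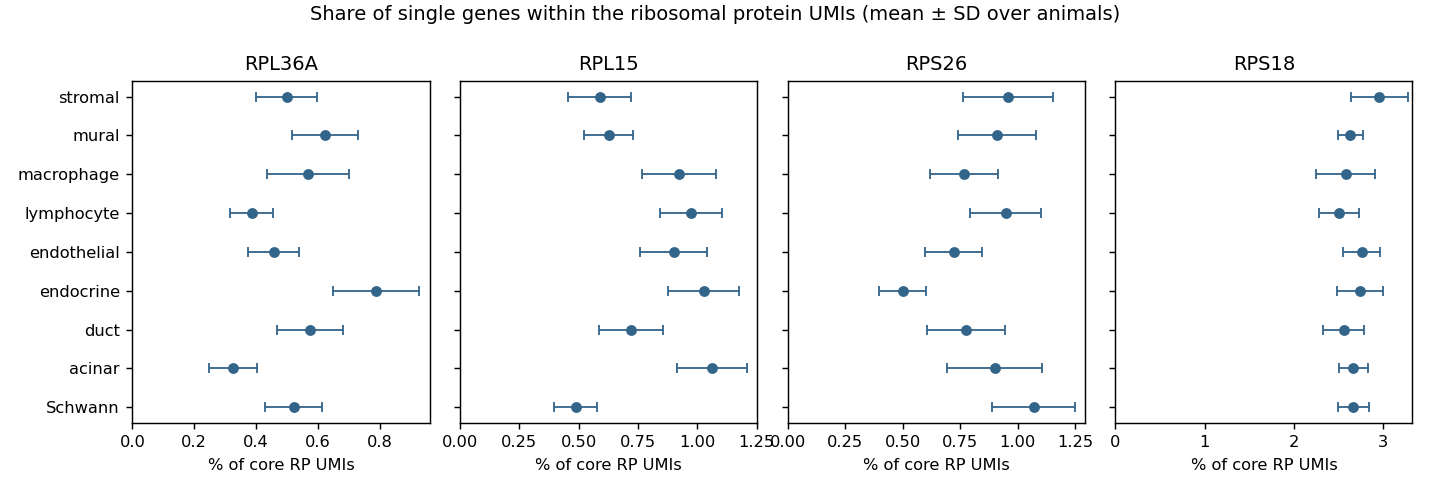
Share of core ribosomal protein UMIs (x axis, percent) held by RPL36A, RPL15, RPS26 and RPS18 in 9 lineages. Points are means and bars the SD over animals with 20 or more cells. RPL36A is lowest in acinar and highest in endocrine cells, while RPS18 stays between 2.51% and 2.96%.

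The paralogs were not expressed alike. RPL36AL, close in sequence to RPL36A, was the most abundant at 1176 CPM over all kept cells, and RPS27L followed at 252. RPL22L1, the partner gene of RPL22, had 737 CPM ± 253 (SD, n = 14) in lymphocytes, 306 ± 124 (n = 16) in macrophages and 278 ± 90.9 (n = 23) in endothelial cells. Its level was 253 ± 162 (n = 22) in stromal, 208 ± 128 (n = 23) in acinar, 91.1 ± 28.5 (n = 23) in duct and 55.7 ± 21.0 (n = 21) in endocrine cells. RPL22L1 was higher in acinar than in duct cells in 23 of 23 animals and lower in endocrine than in duct cells in 21 of 21 (log2 fold change -0.48, SE 0.07, edgeR adjusted p = 5.20e-07), in both cases also with scaling to all UMIs. RPL26L1 ran the other way, with 27.4 CPM in acinar and 114 in duct cells. RPL3L, a striated muscle paralog, and RPL10L, a testis paralog, had 96 and 18 UMIs in all kept cells.

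Of the 11 genes that only share the name, 9 were tested between endocrine and duct cells. With TMM 5 were higher and 2 lower in endocrine cells (77.3% of all genes called). With scaling to all UMIs 3 were higher and 2 lower (79% of all genes called). The TMM count is near its background and the other is below its own, so the genes named next are a description. RPS6KC1 was among the higher, at a log2 fold change of 1.25 with TMM, and RPS6KA1 at -1.64 and RPS6KB1, a kinase of ribosomal protein S6, at -0.38 were the lower. The values that follow are for RPS6KL1 and RPS6KA3, a growth-factor-activated kinase, both chosen after their values were seen. RPS6KA3 had 159 CPM ± 27.2 (SD, n = 21) in endocrine, 150 ± 46.6 (n = 23) in endothelial, 70.2 ± 35.8 (n = 23) in duct and 7.79 ± 2.78 (n = 23) in acinar cells, and was higher in endocrine than in duct cells in 21 of 21 animals (log2 fold change 1.60, SE 0.11, edgeR adjusted p = 9.38e-13). RPS6KL1 had 9.24 CPM in endocrine and 0.711 in duct cells of the same animals, higher in 21 of 21. In endothelial cells RPS6KL1 had 11.3 CPM ± 5.75 (SD, n = 23) and in lymphocytes 6.22 ± 4.63 (n = 14), so its level was not particular to endocrine cells.

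Other genes of translation were followed in acinar cells from 120 days to term with TMM, where 14.2% of all genes were called. Of 7 ribosomal proteins named outside the rule, 5 were lower and 0 higher, among them GNB2L1 (RACK1), a scaffold on the small subunit, at a log2 fold change of -1.25, and FAU at -0.82. Of 18 genes on the translation factor list 7 were lower and 0 higher, among them EIF4B at -0.76. The list is not limited to such factors: NAP1L1, a nucleosome assembly protein, is 1 of the 7, at -1.07. By contrast 8 of 29 ribosome biogenesis genes were higher and 0 lower, with RRS1 at 1.57 and NOP2 at 0.98, and of 74 mitochondrial ribosomal proteins 16 were higher and 2 lower, with MRPL28 at 1.07. Between genotypes in acinar cells at term, 2 of the 29 biogenesis genes were lower in CF and 0 higher, where 0.683% of all genes were called. These were NOP2 at -1.20 and POLR1C at -0.89.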

How the data were processed

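Single-cell libraries of sheep pancreas pieces were analysed from the count matrices the authors deposited, UMI counts per gene and barcode made with Cell Ranger 3.1.0 against the Oar_v4.0 assembly. A barcode was kept if its gene number lay between 200 and 6000 and mitochondrial genes made up less than 25% of its UMIs. Doublets were not called. Cells were gated by the highest of 10 marker scores (at least 0.15, and 0.05 above the next), thresholds set after the data were seen. Ribosomal protein genes did not enter the gate.

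Counts were summed per animal, joining repeat libraries, for lineages with at least 20 cells, and tested with edgeR 4.0.16 (quasi-likelihood, TMM, filterByExpr) in R 4.3.3, one fit per lineage over all 6 groups, or with animal as a block between lineages. P-values were adjusted over all genes tested (Benjamini-Hochberg). DESeq2 1.42.0, other scalings, filters and gates, and leaving out animals were alternatives. Shares were computed in Python 3.11.15 and carry no p-value. Clones and litter mates were counted as separate animals, so p-values may be too small.

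On simulated counts the fit recovered the direction and size of the changes and kept its error rate among unchanged genes. It called most 4-fold changes but few 2-fold changes, so the absence of a call says little about changes of that size.

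Genes named in the text were, per comparison, up to 3 core genes in each direction with the lowest p and no overlap (between lineages, the largest fold change), the 5 highest and 5 lowest, all paralogs, the 3 most and 3 least variable in share among lineages, and up to 2 per other list. RPS19 in endocrine cells, RPS6KA3, RPS6KL1, RPS6KC1, RPS6KA1 and RPS6KB1 were chosen after their values were seen. The members and lists were chosen with earlier results of these data known. Some genes that this rule names are not reported here.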

Additional observations from a re-analysis of the deposited data

Results flagged for a closer look

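CF 120-day replicate 3 gave a core share of 6.84% in duct cells, far below the next of the 6 animals at 16.2%. The same animal was as far from the rest in endothelial cells, at 10.1% against 18.9%, and in mural cells, at 13.2% against 21.7%. In stromal cells it had 8.82% against 19.7%, without standing as far apart relative to the spread of the 6. In Schwann cells it had 11.3%, against 15.7% in the next of the CF 120-day animals with enough cells. Its 41 acinar cells, by contrast, had 24.1%, within the 17.2% to 26.0% of the 6 animals, so the low share did not extend to every lineage of the library. The duct, endothelial and mural shares were the 3 values far from the rest among 21 sets of animals examined, where about 1 in 20 sets would show one by chance. The sets share animals between lineages, and all 3 values come from 1 library. They are thus not 3 independent events, and their number cannot be set against that rate. The library was the shallowest of the series, and its duct cells had the highest CFTR level, 913 CPM. Mitochondrial genes made up 16.8% of its duct UMIs, against 5.61% to 9.15% in the other CF 120-day animals, 8.66% against 4.01% to 6.36% in endothelial and 7.91% against 4.67% to 6.21% in mural cells. The part of depth and mitochondrial share in the low core shares was not tested.

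The change from 80 days to term in non-CF animals was compared between acinar cells and the other lineages by a test of the difference itself. The log2 change was lower in acinar than in endocrine cells for 63 of 68 core genes (10.5% of all genes called) and than in duct cells for 7 (2.96%). The 5 with a lower change than in stromal cells are near the background of 7.85% and are no result about the core genes. These tests were added after the shares had been seen.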

How the results depend on the processing

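Of the alternatives to the calls and shares, 591 gave a count within 1.5 times the main one or a share ratio within 1 SD of it. Another 39 moved further and 5 were reversed, and these others are given here. Many of the 591 set 0 calls against 0 calls, and since few 2-fold changes were called in the 1 comparison simulated, that sameness says little. The cause of a move was not tested unless stated. With scaling to all UMIs the test called 56 core genes in acinar cells between 80 and 120 days (0 with TMM), 40 between acinar and duct cells, 48 between endocrine and duct cells with the majority turned to lower, and 0 in endocrine cells from 120 days to term. With core ribosomal protein UMIs as the library size, which by construction removes a common change, it called 4 in acinar cells from 120 days to term, 55 between acinar and duct, 48 between endocrine and duct and 36 between stromal and duct cells, each with the majority direction turned, and 0 in endocrine and stromal cells from 120 days to term. Without the low-count filter these last counts were also 0 and 0. DESeq2 called 1 in endocrine cells between genotypes at 80 days and 4 between 80 and 120 days. Leaving out 1 animal gave 0 to 5 calls between genotypes at 80 days in acinar cells (the 5, RPS27, RPS21, RPL37, RPL31 and RPL34, were lower in CF without CF replicate 1) and 0 to 20 in endocrine cells (20 without CF replicate 1), 13 to 41 in acinar cells from 120 days to term, 0 to 1 in endocrine and 0 in stromal cells.

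With the donor number as a replicate block the test called 1 core gene, RPL7A, in endocrine cells between 80 and 120 days, and 0 in endocrine and 0 in stromal cells from 120 days to term. The numbers did not pair the animals: same-numbered animals of different groups had a mean correlation of deviations between -0.02 and 0.01 in the 4 lineages.

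The log2 ratio of shares in all kept cells between CF and non-CF at 80 days was -0.32, and -0.44 with mitochondrial and the most abundant genes left out of the total, -0.20 by the median over cells and -0.078 with equal weight for 4 lineages. At term it was 0.37, and 0.063 without those genes. From 80 to 120 days in non-CF animals it was -0.38, and 0.15 without those genes, -0.21 by the median over cells and -0.18 with equal weight, and from 120 days to term -0.61, and -0.23 with equal weight. In acinar cells from 80 to 120 days it was -0.65, and -0.043 without those genes, and between acinar and duct cells 0.31, and 1.10 without them. With few animals and standard errors often over 0.2, changes of single genes below 2-fold were not reliably detectable.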
